A study of Mus musculus with 4 samples.

Results

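The organic anion and cation transporters of the mouse kidney were examined on 4 oligonucleotide arrays. Members were all probe sets, the groups of array features that read 1 transcript, whose platform gene symbol is Slc22a or Slco followed by the usual family numbering. The rule found 60 of 45101 probe sets, standing for 36 genes, 21 of the Slc22 family and 15 of the Slco family. A further probe set that carries the symbols of both Slc22a30 and Slc22a29 was left out. The arrays held RNA that had been cut by laser from frozen kidney sections of wild-type CD-1 mouse fetuses, an outbred stock, at stage E15.5 (Theiler stage 23, sex unknown, no treatment given in the labels). The cortical collecting duct, which grows from the branching ureteric bud, was represented by 1 array, and the anlage of the loop of Henle, a forming nephron segment, by 3 arrays. The RNA of each array was pooled from some 50 sections of 5 kidneys and amplified in 2 rounds. The comparison asks which of these transporters differ between the 2 structures.

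Slc22 and Slco genes encode membrane carriers that move drugs, metabolites, hormones, bile acids and toxins across epithelia. In the adult kidney they are best known from the proximal tubule, where organic anion transporters (OATs) and organic cation transporters (OCTs) take solutes up from blood for secretion into urine. Apical exporters of the Slc47, Abcc and Abcg families then complete the secretion, and the OAT exchange is driven by dicarboxylates that sodium-coupled Slc13 carriers bring into the cell.

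Values below are probe set signals after quantile normalization, which gives all 4 arrays the same distribution, and differences are collecting duct minus anlage on the scale log2(signal + 109.6). The offset of 109.6 is the 25th percentile of all signals, and it shrinks the differences of dim probe sets. For each gene the brightest probe set was tested, if its mean log2 value over the 4 arrays reached 8.416, the 40th percentile of all probe sets. Of the 36 genes 18 passed (50%), against 69.5% of all 18193 genes. A gene that is bright in only 1 structure can pass through that structure alone, so counts over the 18 describe them and support nothing. With 1 collecting duct array the spread came from the 3 anlage arrays alone, the number of arrays limits the precision, and the lone array was assumed to vary like the others.

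On these arrays the marker lists followed the labels of the captured structures. The lists were chosen with earlier results of these data known, so their values are a description and no independent check. All 12 collecting duct and ureteric markers read higher on the collecting duct array, 10 of them above all 3 anlage arrays, and all 10 loop and thick limb markers lay below all 3. Means of the collecting duct list were 12.52 on the collecting duct array and 9.72, 10.81 and 9.77 on anlage arrays 1, 2 and 3. Those of the loop list were 8.34 on the collecting duct array and 12.08, 10.93 and 11.96 on the anlage arrays. In both lists anlage array 2 was the nearest of the 3 to the collecting duct array. Proximal tubule markers, of which 14 of 18 were tested, read lower on the collecting duct array for 13, and 7 lay below all 3 anlage arrays. Their mean log2 value was 9.30 on the collecting duct array and 10.03, 10.05 and 10.002 on anlage arrays 1, 2 and 3. Fxyd2, Amn and Aqp1 differed by −2.999 ± 0.89, −1.48 ± 0.50 and −1.37 ± 0.75 (SE), whereas Cubn and Dpep1 differed by −0.087 ± 0.51 and −0.25 ± 0.63. The median difference of the 14 was −0.46, and the 1 higher marker, Slc4a4, differed by 0.79 ± 1.07 (SE). Endothelial markers read lower on the collecting duct array for all 6 tested, 3 of them below all 3 anlage arrays, with a median difference of −1.43 and list means of 8.90 on the collecting duct array and 9.72, 10.61 and 10.74 on the anlage arrays. Of 4 macrophage markers 3 lay below all 3 anlage arrays, with list means of 9.54 on the collecting duct array and 10.22, 10.04 and 9.93 on the anlage arrays. Stromal markers were bright in every array, with list means of 13.71 on the collecting duct array and 13.76, 13.58 and 14.41 on the anlage arrays. Nephron progenitor markers read lower for 2 of 3 and ureteric tip markers for 2 of 5. The part of RNA from any of these cell types in the transporter values was not tested, and in such bulk samples fewer cells of a type and less RNA per cell cannot be told apart. The ratio of 3' to 5' Gapdh signal, a sign of shortened RNA when large, was 12.05 on the collecting duct array and 10.25, 54.1 and 26.02 on the anlage arrays.

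No transporter passed the test over all genes. Limma called 0 of 18 higher and 0 of 18 lower at an adjusted p of 0.05, as it did for all 12642 genes tested (0% in each direction). At an unadjusted p under 0.05 there was 1 transporter higher (1.18% of all genes) and 2 lower (2.23% of all genes), namely Slco4c1 on one side and Slc22a2 and Slco4a1 on the other. The adjusted p was 1 for each of the 18. Higher values on the collecting duct array were found for 11 of 18 transporters, against 45.1% of all genes, and lower values for 7, against 54.9%. Collecting duct values exceeded all 3 anlage values for 5 transporters (17.3% of all genes) and lay under all 3 for 6 (24.3% of all genes). A difference beyond 1 on the log2 scale was seen upward in 2 transporters (4.64% of all genes) and downward in 4 (6.99% of all genes). The median difference of the 18 was 0.081, and that of all genes tested −0.065. These shares carry no test of the transporters as a group.

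**Figure D1:**
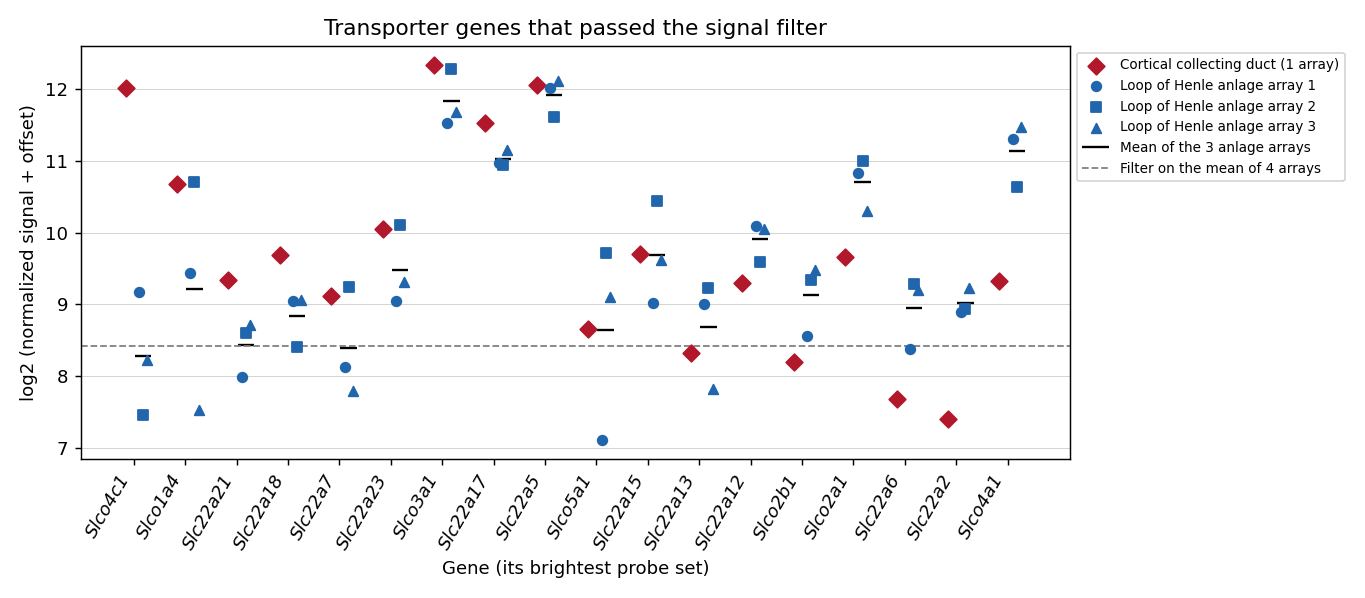
Log2 values of the 18 transporter genes tested, on the collecting duct array (red diamonds) and in the 3 anlage arrays (blue), ordered by their difference, with bars at the anlage mean and a dashed line at the filter value of 8.416. Slco4c1 stands far above its anlage values at the left, and Slc22a6, Slc22a2 and Slco4a1 stand below theirs at the right. Heights of different genes come from different probe sets and cannot be set against each other.

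Slco4c1, a basolateral carrier of digoxin and thyroid hormone known from the proximal tubule of rat and human kidney, had the widest difference among the 18. Its signal was 4004 on the collecting duct array, against 470.1, 66.6 and 189.7 on anlage arrays 1, 2 and 3. The collecting duct value was the highest of the 4 by a wide margin, and the anlage values themselves differed, from under the offset on array 2 to a moderate signal on array 1. Slco4c1 passed the filter through the collecting duct array, since its anlage mean lay under the filter value, as did that of Slc22a7. The log2 value was 12.01 on the collecting duct array and 8.29 ± 0.86 in the anlage (SD, n = 3), a difference of 3.72 ± 0.75 (SE, limma, unadjusted p = 0.00258), with a 95% interval of 1.88 to 5.56. Because Slco4c1 was tested only through its high value on the collecting duct array, these values describe it and give no standing among all genes. A second, dimmer probe set of Slco4c1 had signals of 170.1 on the collecting duct array, against 125, 461 and 155 on anlage arrays 1, 2 and 3. There the highest value was that of anlage array 2, the array with the largest Gapdh ratio and the lowest signal in the first probe set, and the difference was −0.23. The 2 probe sets of the gene thus disagreed in sign, and the mean of both gave a difference of 1.74.

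Slc22a6 and Slc22a2, the carriers at the centre of renal drug secretion, both read lower on the collecting duct array than in every anlage array. Slc22a6 encodes OAT1, which takes up p-aminohippurate and many anionic drugs from blood. Its signal was 95.2 on the collecting duct array, against 224, 514 and 479 on anlage arrays 1, 2 and 3, so the groups did not overlap. After normalization anlage array 1 was closest to the collecting duct. As deposited array 2 was closest, with 95.9 on the collecting duct array, against 327, 307 and 441 on anlage arrays 1, 2 and 3. The difference was −1.28 ± 0.58 (SE, limma, unadjusted p = 0.071, 95% interval −2.71 to 0.15). The other probe set of Slc22a6 read 41.2 on the collecting duct array, against 62.8, 195 and 107 on anlage arrays 1, 2 and 3, in the same direction, by −0.58.

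Slc22a2 encodes OCT2, the basolateral entry for cations such as creatinine and metformin. Its 1 probe set had a signal of 59.2 on the collecting duct array, against 364, 382 and 492 on anlage arrays 1, 2 and 3. After normalization the 3 anlage values were close together and all several times the collecting duct value, which lay under the offset. As deposited they were further apart, at 519, 214 and 454 on anlage arrays 1, 2 and 3, against 57.7 on the collecting duct array. The difference was −1.62 ± 0.50 (SE, limma, unadjusted p = 0.017, 95% interval −2.84 to −0.41). Slc22a2 passed the filter through the anlage arrays, since its collecting duct log2 value of 7.40 lay under the filter value of 8.416. The same holds for Slc22a6 (7.68), Slco2b1 (8.20) and Slc22a13 (8.33). As for Slco4c1, the values of these genes describe them and give no standing among all genes. Because the collecting duct signal of both genes was dim, the size depended on the offset, from −2.33 with the 10th percentile to −0.86 with the 50th for Slc22a2. Without anlage array 3, Slc22a2 no longer reached the filter and was not tested. Genes of the other organic cation transporters were not analysed here.

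The bases before the start sites that the RefSeq promoter table gives for Slco4c1, Slc22a6 and Slc22a2 (build GRCm38.p6, 250 bases each) are shown because Slco4c1 and Slc22a2 had the opposite direction at an unadjusted p under 0.05 and Slc22a6 is the OAT1 gene. They lie at chr1:96872172-96872421 on the minus strand, chr19:8617746-8617995 on the plus strand and chr17:12583939-12584188 on the plus strand. RefSeq lists Slco4c1 with an end at 96872193, upstream of the start site used, so 22 bases of its window lie inside the gene as listed. Capitals mark matches on either strand to 3 short motifs, chosen after the values were seen, whose matches do not overlap here: GATAA of GATA factors, GTTAAT of HNF1 and CAAAG of HNF4.
Slco4c1: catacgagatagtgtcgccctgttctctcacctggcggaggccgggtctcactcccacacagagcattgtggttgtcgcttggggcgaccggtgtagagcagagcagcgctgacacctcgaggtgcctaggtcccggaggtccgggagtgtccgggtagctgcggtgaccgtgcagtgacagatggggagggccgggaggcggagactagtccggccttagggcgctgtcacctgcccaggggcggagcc
Slc22a6: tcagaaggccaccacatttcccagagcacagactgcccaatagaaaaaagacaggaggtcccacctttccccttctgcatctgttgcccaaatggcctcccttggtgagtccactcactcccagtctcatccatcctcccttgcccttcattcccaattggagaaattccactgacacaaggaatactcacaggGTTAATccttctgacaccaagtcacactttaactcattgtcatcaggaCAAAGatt
Slc22a2: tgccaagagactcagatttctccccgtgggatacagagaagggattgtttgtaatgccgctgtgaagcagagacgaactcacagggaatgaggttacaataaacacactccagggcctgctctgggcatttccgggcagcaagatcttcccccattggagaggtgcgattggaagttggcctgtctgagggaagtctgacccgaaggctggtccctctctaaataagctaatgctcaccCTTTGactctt
The Slc22a6 window held 1 GTTAAT and 1 CAAAG. The Slc22a2 window held CAAAG in its reverse form CTTTG, and the Slco4c1 window held none of the 3 as searched. For GATA factors only GATAA was searched. The related letters GATAG were not searched and do occur in the Slco4c1 window, so the GATAA counts leave out that form. In 250-base windows of all 32851 RefSeq promoters given, GATAA was present in 22.6%, GTTAAT in 6.43% and CAAAG in 48.6%. Of 37 windows of 32 member genes, 8 held GATAA, 4 held GTTAAT (those of Slco1b2, Slc22a29, Slc22a8 and Slc22a6) and 25 held CAAAG. A match describes the letters and is not a site. Among the factors themselves, Gata3 stood at a log2 value of 15.17 on the collecting duct array, against 11.95, 12.50 and 10.46 on anlage arrays 1, 2 and 3, and Hnf4a at 10.45 on the collecting duct array, against 11.06, 11.95 and 11.23 on anlage arrays 1, 2 and 3.

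Of the remaining anion transporters of the Slc22 family, 3 were tested. Slc22a12 encodes URAT1, the apical urate exchanger, and its signal was 522 on the collecting duct array, against 985, 661 and 946 on anlage arrays 1, 2 and 3. The collecting duct array was the lowest of the 4, although anlage array 2 lay close to it, and the difference was −0.61 ± 0.53 (SE, 95% interval −1.91 to 0.69). Its second probe set read 66.5 on the collecting duct array, against 66.1, 319 and 370.1 on anlage arrays 1, 2 and 3, where the collecting duct and anlage array 1 did not separate. Slc22a13, a carrier of nicotinate and urate, had a signal of 212 on the collecting duct array, against 405, 487 and 116 on anlage arrays 1, 2 and 3, and the collecting duct value lay within the anlage range. Slc22a7, encoding OAT2, had a signal of 445 on the collecting duct array, against 171, 496 and 111 on anlage arrays 1, 2 and 3, so the collecting duct and anlage array 2 stood together above anlage arrays 1 and 3. Their differences were −0.35 ± 0.70 and 0.73 ± 0.70 (SE), with 95% intervals of −2.05 to 1.34 and −0.98 to 2.43. Without anlage array 3 the differences were −0.80 for Slc22a13 and 0.44 for Slc22a7, and without array 2 neither gene reached the filter.

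Slc22a8, which encodes OAT3 and is the direct neighbour of Slc22a6 on chromosome 19 with 0 protein-coding genes between them, did not reach the filter. Its 2 probe sets had signals of 318 on the collecting duct array, against 159.6, 219 and 58.4 on anlage arrays 1, 2 and 3, and of 165 on the collecting duct array, against 206, 233 and 61.2 on anlage arrays 1, 2 and 3. In the first the collecting duct value was the highest, and in the second it lay inside the anlage range. The pattern of Slc22a6, with the collecting duct lowest, was seen in neither probe set of Slc22a8, though no test of that contrast was made. The other anion transporter genes of the same chromosome 19 cluster, Slc22a19, Slc22a26, Slc22a27, Slc22a29 and Slc22a30, were also below the filter.

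Carnitine carriers, which bring in the cofactor that moves fatty acids into mitochondria, were represented by Slc22a5 and Slc22a21. Slc22a5 encodes OCTN2, the main carnitine transporter, and its signal was 4146 on the collecting duct array, against 4037, 3004 and 4328 on anlage arrays 1, 2 and 3. It was well above the filter in all 4 arrays, with the collecting duct inside the anlage range, and the difference was 0.14 ± 0.52 (SE, 95% interval −1.13 to 1.41). Slc22a21, the mouse carrier OCTN3 that lies directly beside Slc22a5 on chromosome 11, had a signal of 538 on the collecting duct array, against 144, 278 and 312 on anlage arrays 1, 2 and 3. Here the collecting duct array was the highest of the 4, and the difference was 0.90 ± 0.55 (SE, limma, unadjusted p = 0.15, 95% interval −0.44 to 2.24). The third gene of that cluster, Slc22a4, encodes OCTN1, a carrier of ergothioneine, and was below the filter. Only anlage array 2 read above 15 signal units for Slc22a4, at 344.1, against 11.1 on the collecting duct array and 5.93 and 14.8 on anlage arrays 1 and 3.

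Of the Slc22 genes with other or unsettled substrates, 4 were tested. Slc22a17, which encodes a receptor for the iron-carrying protein lipocalin-2, had a signal of 2827 on the collecting duct array, against 1896, 1859.9 and 2172 on anlage arrays 1, 2 and 3. The anlage values were tight and the collecting duct value lay above them, with a difference of 0.50 ± 0.51 (SE, 95% interval −0.75 to 1.74). Slc22a18, an imprinted gene, read 712 on the collecting duct array, against 418, 230.4 and 425 on anlage arrays 1, 2 and 3. Both of its probe sets had the collecting duct highest, with differences of 0.84 and 0.86, the first with a 95% interval of −0.49 to 2.18. Slc22a23, an orphan carrier, had a signal of 951 on the collecting duct array, against 421, 987 and 523 on anlage arrays 1, 2 and 3, and Slc22a15 one of 722 on the collecting duct array, against 407, 1279 and 679 on anlage arrays 1, 2 and 3. Both had anlage array 2 as the highest of the 4 arrays, and their differences were 0.57 ± 0.62 and 0.0068 ± 0.69 (SE). The sign of Slc22a15 turned under 4 of the other settings. The second probe set of Slc22a15 differed by 1.26, so the probe sets of that gene gave different sizes.

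Slco4a1, which transports thyroid hormone and bile acids, had the opposite direction to Slco4c1, of the same subfamily, in its brightest probe set. Its signal was 529 on the collecting duct array, against 2407, 1478 and 2716 on anlage arrays 1, 2 and 3. All 3 anlage arrays stood well above the collecting duct array. The log2 value was 9.32 on the collecting duct array and 11.13 ± 0.44 in the anlage (SD, n = 3), and the difference was −1.81 ± 0.58 (SE, limma, unadjusted p = 0.0208, 95% interval −3.24 to −0.39). That value comes from a probe set of the x type, in which some probes may also bind transcripts of other genes. The other probe set of Slco4a1 was dim, at 90.6 on the collecting duct array, against 72.8, 156 and 23.0 on anlage arrays 1, 2 and 3, with a difference of 0.11. The mean of both gave −0.85.

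The prostaglandin transporter Slco2a1 and the steroid sulfate carrier Slco2b1 both had the collecting duct array lowest in their brightest probe set. Slco2a1 read 702 on the collecting duct array, against 1713, 1931 and 1147 on anlage arrays 1, 2 and 3, a difference of −1.04 ± 0.56 (SE, 95% interval −2.41 to 0.33). Of its 4 probe sets 3 had a collecting duct value under the anlage mean and 1 above it, with differences from −1.44 to 0.18. Endothelial markers were lower on the same array, as given above, and their part in the Slco2a1 signal was not tested. Slco2b1 read 185 on the collecting duct array, against 268, 537 and 605 on anlage arrays 1, 2 and 3, a difference of −0.92 ± 0.59 (SE, 95% interval −2.36 to 0.51). The direction of Slco2b1 rested on the probe set, since another one above the filter differed by 0.51. Without anlage array 3 that other probe set became the brightest and the difference was 0.18.

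Slco3a1, a broadly expressed carrier of prostaglandins and thyroxine, had 3 probe sets above the filter, and they disagreed. The brightest read 5061 on the collecting duct array, against 2846, 4842 and 3158 on anlage arrays 1, 2 and 3, with the collecting duct highest and anlage array 2 beside it. The second read 1068 on the collecting duct array, against 1127, 1992 and 1211 on anlage arrays 1, 2 and 3, and the third 719 on the collecting duct array, against 1965, 762 and 1159 on anlage arrays 1, 2 and 3, with the collecting duct lowest in both. The differences were 0.51 ± 0.55 (SE, 95% interval −0.84 to 1.86) for the brightest and −0.36 and −0.67 for the others. No direction for Slco3a1 can be given from these arrays.

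**Figure D2:**
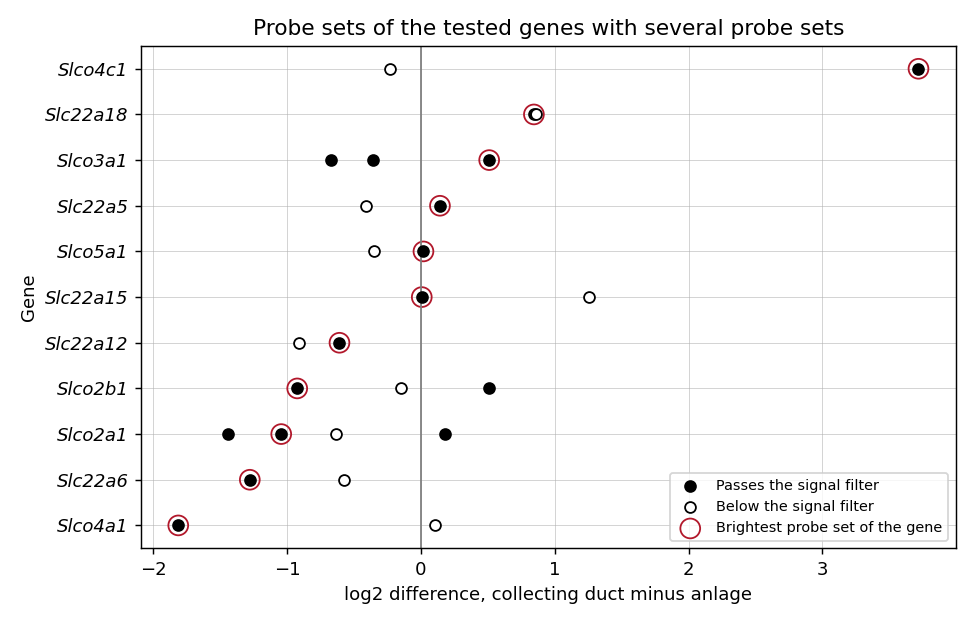
Difference between the collecting duct array and the anlage mean for each probe set of the 11 tested transporter genes that have several, with filled points for probe sets that pass the signal filter and a red ring around the brightest. In 7 of the 11 genes, Slco4c1 among them, the probe sets fall on both sides of 0.

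Slco1a4 varied most within the anlage. This carrier of digoxin, bile acids and steroid conjugates had a signal of 1526 on the collecting duct array, against 582, 1556 and 74.9 on anlage arrays 1, 2 and 3. The collecting duct and anlage array 2 were alike, and anlage array 3 lay under the offset. Its anlage SD of 1.60 on the log2 scale was the widest of the 18, and the difference of 1.45 ± 1.17 (SE) had a 95% interval of −1.41 to 4.32. Without anlage array 3 the difference was 0.60. Slco5a1, an orphan carrier, also ranged widely within the anlage, at 295 on the collecting duct array, against 28.7, 729.6 and 440.1 on anlage arrays 1, 2 and 3, with a difference of 0.019 ± 1.02 (SE, 95% interval −2.48 to 2.52).

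**Figure D3:**
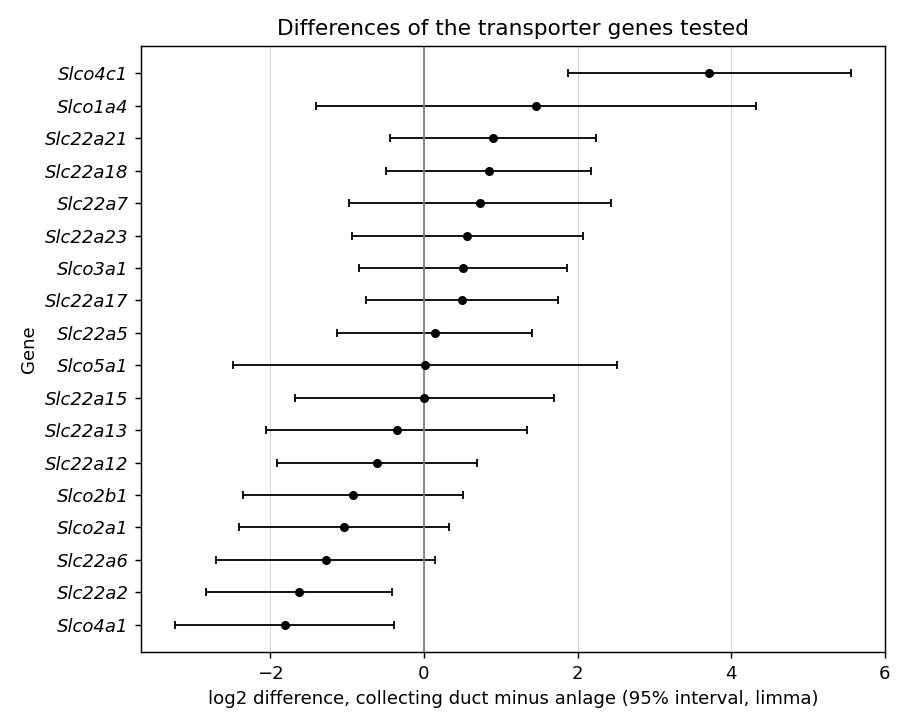
Log2 difference, collecting duct minus anlage, of the 18 transporter genes tested, with the 95% interval of the limma fit, which is not adjusted for the number of genes. The intervals of Slco4c1, Slc22a2 and Slco4a1 leave out 0 and the other 15 include it.

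Below the filter lay 18 genes, among them the whole Slco6 subfamily, known mainly from testis, and most of the Slco1 cluster on chromosome 6. In 10 of the 18, no array reached the filter value, with log2 values from 6.81 to 8.32: Slc22a14, Slc22a16, Slc22a19, Slc22a27, Slc22a29, Slc22a30, Slco1b2, Slco6b1, Slco6c1 and Slco6d1. On chromosome 1, Slco4c1 is followed by Slco6b1, which RefSeq lists as a noncoding gene, and Slco6c1, with 0 protein-coding genes between Slco4c1 and Slco6c1. At these levels the arrays do not separate a low transcript from none, and no fold is given.

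In the other 8 genes below the filter, at least 1 array exceeded the filter value. Slc22a8 and Slc22a4 are given above. Slco1c1, the thyroxine carrier of the blood-brain barrier, read 8.87 on the collecting duct array, against 138, 189 and 322 on anlage arrays 1, 2 and 3, and Slco1a5 read 85.5 on the collecting duct array, against 227, 254 and 408 on anlage arrays 1, 2 and 3. In both, all anlage arrays exceeded the collecting duct array. The second probe set of Slco1a5 went the other way, at 174 on the collecting duct array, against 60.6, 48.2 and 39.7 on anlage arrays 1, 2 and 3. Slco1a1, a carrier of adult liver and kidney, read 74.0 on the collecting duct array, against 257, 126 and 158 on anlage arrays 1, 2 and 3, and Slco1a6 read 265 on the collecting duct array, against 101, 259.6 and 234 on anlage arrays 1, 2 and 3. For Slco1a1 the collecting duct was lowest in this probe set, and for Slco1a6 it stood just above anlage array 2. The second probe set of Slco1a1 read 89.2 on the collecting duct array, against 69.1, 175 and 19.6 on anlage arrays 1, 2 and 3, with the collecting duct inside the anlage range. Slc22a22, a prostaglandin-specific anion transporter in mouse, read 249.8 on the collecting duct array, against 192, 373 and 86.9 on anlage arrays 1, 2 and 3, and Slc22a26 read 135 on the collecting duct array, against 272, 9.11 and 64.0 on anlage arrays 1, 2 and 3. Both had the collecting duct inside the range of the anlage.

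**Figure D4:**
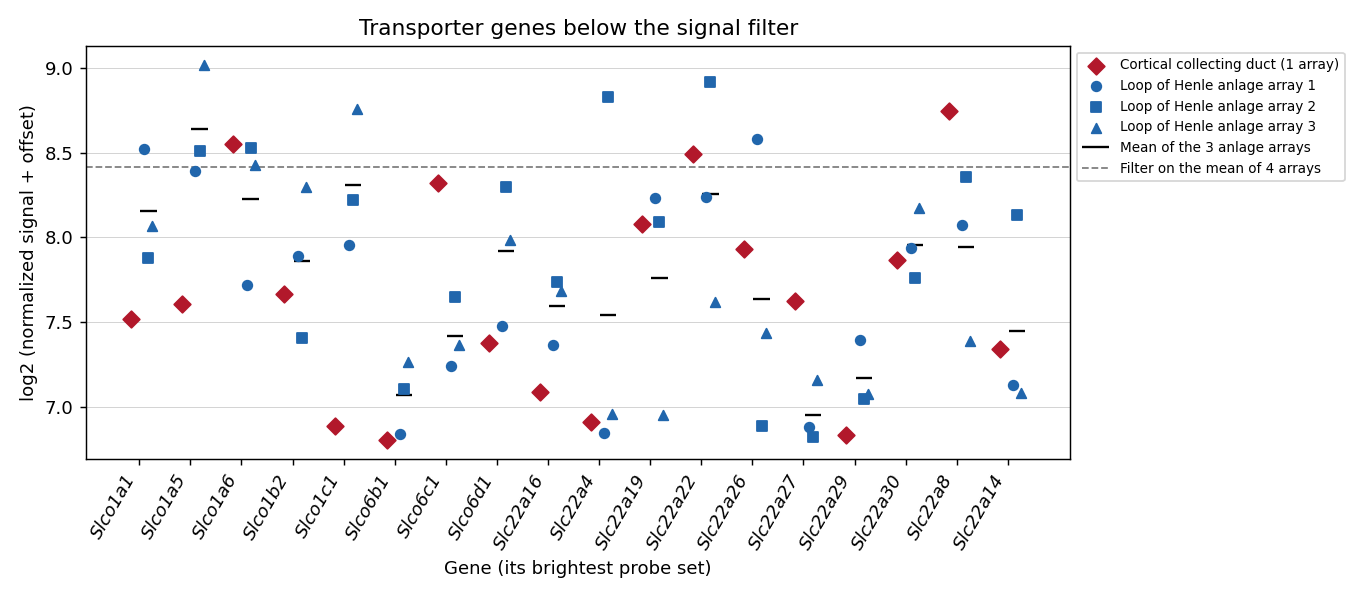
Log2 values of the 18 transporter genes below the signal filter, on the collecting duct array (red diamonds) and the 3 anlage arrays (blue), grouped by family, with bars at the anlage mean and the filter value as a dashed line. In 8 genes at least 1 array lies above the line, and in 10 none does.

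Other genes of organic ion handling were followed through a list of 34 exporters, dicarboxylate carriers, scaffolds, regulators and carnitine users, of which 30 had a probe set and 16 were tested. None passed over all genes, 0 higher and 0 lower by limma, and 2 were lower at an unadjusted p under 0.05 (2.23% of all genes). Lower values on the collecting duct array were found for 11 (54.9% of all genes) and higher values for 5 (45.1%). The collecting duct lay below all 3 anlage arrays for 6 of the 16 (24.3% of all genes) and above all 3 for 2 (17.3%), the exporters Abcc3 and Abcc4. The apical exporter Abcg2, which moves urate and many drugs, stood at a log2 value of 11.10 on the collecting duct array, against 12.42, 13.50 and 12.61 on anlage arrays 1, 2 and 3, a difference of −1.75 ± 0.61 (SE, unadjusted p = 0.0278). Slc17a1, an apical urate and phosphate carrier, stood at 7.63 on the collecting duct array, against 10.37, 9.81 and 8.75 on anlage arrays 1, 2 and 3, a difference of −2.01 ± 0.73 (SE, unadjusted p = 0.0334). Slc47a1, the MATE1 exporter that completes the secretion of cations taken up by OCT2, stood at 10.55 on the collecting duct array, against 12.02, 11.36 and 11.27 on anlage arrays 1, 2 and 3. These 3 genes are among the 6 with all anlage arrays above the collecting duct array.

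The multidrug exporter Abcc3 had the collecting duct highest, at 10.37 on the collecting duct array, against 8.74, 9.69 and 8.86 on anlage arrays 1, 2 and 3, a difference of 1.27 ± 0.60 (SE), and that of Abcc4 was 0.54 ± 0.48. The mitochondrial carnitine enzyme Cpt2 stood at 10.32 on the collecting duct array, against 11.07, 11.84 and 11.25 on anlage arrays 1, 2 and 3. The urate carrier Slc17a3 stood at 8.85 on the collecting duct array, against 10.74, 9.85 and 7.97 on anlage arrays 1, 2 and 3, so the collecting duct lay inside the anlage range. The scaffold Slc9a3r2 stood at 9.46 on the collecting duct array, against 9.23, 10.71 and 10.42 on anlage arrays 1, 2 and 3, again with the collecting duct inside that range. The differences were −1.07 ± 0.57 for Cpt2, −1.005 ± 0.57 for Slc47a1, −0.66 ± 1.06 for Slc17a3, −0.66 ± 0.72 for Slc9a3r2 and −0.96 ± 0.59 for the regulator Hnf4a (SE). The sodium-dicarboxylate carriers that feed the OAT exchange, Slc13a2 and Slc13a3, and the sulfate carrier Slc13a1 were below the filter.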

How the data were processed

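Per the labels, each sample was a pool of laser-captured sections, amplified and biotin-labelled. The deposited values were linear probe set intensity values made with GCOS, per the submitters' processing notes; the sources used here do not give its version, algorithm or background correction. All 4 arrays had the same 2% trimmed mean of 1500, the sign of a common scaling. The arrays were quantile normalized, log2(signal + 109.6) was taken, and 64 control probe sets were left out. Of 45037 probe sets, 34945 had 1 symbol in the platform table, 932 several and 9160 none. All 36 member genes matched the RefSeq table of GRCm38.p6 under the same symbol. The fit used limma 3.58.1 in R 4.3.3 (lmFit, eBayes with intensity trend, two-sided, Benjamini-Hochberg over 12642 genes), with 2 residual and 4.04 prior degrees of freedom. It was tried on data simulated with normal noise and 200 changed genes. Changes of 1, 2, 4 and 6 log2 units were recovered in 0.6%, 11.4%, 96.6% and 99.6% of cases, with a mean of 7.6 false calls. Differences of 1 or 2 log2 units were thus mostly missed in the simulation. On the arrays even the loop marker Kcnj1, with a difference of −5.52, was not called, so the simulated setting differs from these data. The 0 calls therefore cannot tell differences of 1 or 2 log2 units, or even one as large as that of Kcnj1, from none. Exact permutation of the labels, 1 against 3, can give no p under 0.25.

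Members and lists were chosen with earlier results of these data known. Named with values in every array were the tested members, untested members with any array above the filter, and the 8 tested list genes with the largest differences; Abcc4, Gata3 and the marker genes named were chosen after their values were seen. Neither litters nor batches are given in the labels, so p-values measure only the spread between the 3 anlage arrays, which may be technical. Alternatives were another scaling, no normalization, other offsets, no filter, other uses of probe sets, no trend and leaving out each anlage array. Detection calls were not used here.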

Additional observations from a re-analysis of the deposited data

How the results depend on the processing

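With 1 collecting duct array, no setting tests its own spread. Across 11 alternatives limma called 0 transporters in each, and over all genes 0 to 14 with an anlage array left out, the 14 arising without array 2. At an unadjusted p under 0.05 the transporters numbered 4, 4 and 1 without anlage array 1, 2 and 3, against 3 with all arrays, where the shares of all genes were 10.9%, 3.74% and 1.53%, against 3.41%. The transporters tested numbered 19, 15 and 18 without anlage array 1, 2 and 3, against 18 with all arrays. The number above all anlage arrays, 5, became 3 with scaling to a common median, 9 with no filter (of 36 genes) and 6, 8 and 6 without array 1, 2 and 3. The shares of all genes there were 10.1%, 18.2%, 25.7%, 27.8% and 22.8%, against 17.3%. As deposited, without normalization, 7 lay above all anlage arrays (19.9% of all genes) and 5 below all (19.8% of all genes). The number below all anlage arrays, 6, became 13 with no filter, where the share of all genes was 25.2%, against 24.3%. Without anlage array 1, 2 and 3 the number below all was 7, 6 and 5, where the shares of all genes were 47.5%, 30.5% and 28.5%. With every probe set on its own it was 9 of 23 probe sets, where the share of all probe sets tested was 22.5%. Scaling to a common median moved the median difference of all genes to −0.24, against −0.065, and that of the transporters to −0.070, against 0.081. The transporter median was −0.042 with no filter and reached 0.4967 with the mean of all probe sets, and it was 0.075, 0.36 and 0.25 without anlage array 1, 2 and 3.

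Of 191 differences recomputed for the 18 genes, 179 kept their sign and 12, in 5 genes, did not. Under common-median scaling those were Slc22a15 (−0.12), Slc22a5 (−0.067) and Slco5a1 (−0.074). With the offset at the 50th percentile they were Slc22a15 (−0.016) and Slco5a1 (−0.090). The mean of all probe sets turned Slc22a5 (−0.13) and Slco3a1 (−0.17). With an anlage array left out the differences ranged from −0.36 to 0.36 for Slc22a15, from −0.011 to 0.24 for Slc22a5, from −1.25 to 0.18 for Slco2b1 and from −0.79 to 0.26 for Slco5a1. That of Slco4c1 ranged from 1.74 to 4.41 over all settings. The cause of these changes was not tested, apart from the change of probe set in Slco2b1. A gene below the filter under a setting has no value there. With no filter 30 genes of the organic ion list were tested, 9 with higher and 21 with lower values and 0 called. No paired analysis was possible because the groups share only replicate number 3.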
